A study of Mus musculus with 27 samples.

Results

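Mouse intestine collected 3 d after 15 Gy of γ-irradiation was compared with control intestine in 3 RNA-seq libraries a side, chosen by the labels of the libraries' count columns: 6 of the 27 libraries of the series. All mice were wild-type C57BL/6 males, 6 to 8 weeks old and kept under equal hours of light and dark, per the study's design text. The 15 Gy 3 d group was exposed to a cobalt-60 source at 72 R per min. To place the 3 d values in time, 15 Gy at 24 h and 15 Gy at 6 h, each with 3 libraries, are also given. The control mice are labelled as having had no treatment. The design text names PBS only for the control of CBLB502, a flagellin-derived agonist of Toll-like receptor 5 that was given to other groups and to none described here. The labels give neither the gut segment, the part of the body irradiated, the hour of collection, nor whether each library is 1 mouse, so p-values reflect only how far these libraries spread, and that spread may be technical.

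The intestinal epithelium is renewed from stem cells in the crypts, whose daughters divide, move up the villus and mature into absorptive enterocytes or into goblet, Paneth, tuft and enteroendocrine cells. Ionising radiation breaks DNA and activates p53, which stops or kills dividing crypt cells. In mouse intestine the crypts that remain are known to regenerate within days, with a transient programme of fetal-like genes that includes Clu and Ly6a, while mature enterocytes are still shed from the villus tips. The libraries hold RNA of whole tissue, so fewer cells of a type and less RNA per cell cannot be told apart in any result given here.

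The 3 libraries at 3 d held 79.0, 81.4 and 82.2 M gene counts, against 75.5, 86.9 and 78.3 M in the control libraries (M, 1e6). Levels are given as CPM, counts per 1e6 counts scaled by edgeR's TMM factors, and a difference as a log2 fold change of 3 d over control with its standard error. Mitochondrially encoded genes took 9.09% to 10.5% of counts at 3 d and 11.8% to 17.8% in control. Summed over 20 Paneth cell markers, the level was 714 to 1589 CPM at 3 d and 207 to 307 CPM in control, and over 16 tuft cell markers it was 45.3 to 72.3 CPM at 3 d and 101 to 125 CPM in control. Over 25 T cell and intraepithelial lymphocyte markers the sums were 174 to 297 CPM at 3 d and 344 to 743 CPM in control. Over 12 neutrophil markers they were 17.7 to 25.9 CPM at 3 d and 4.54 to 6.17 CPM in control, with Elane, Mpo and Ngp at 0 in both groups. The neutrophil sums were mostly Ltf in both groups, so they describe that gene more than the list. Smooth muscle sums (12 markers) were 91.1 to 123 CPM at 3 d and 119 to 166 CPM in control, and fibroblast sums (20 markers) 12.1 to 44.7 CPM at 3 d and 8.71 to 15.5 CPM in control. Levels of circadian clock genes also differed between the groups: a difference of mean log2 levels (Npas2, Nfil3 and Arntl less Tef, Cry2, Dbp, Per3, Per2 and Per1) was 1.18 to 2.56 at 3 d and -3.44 to -2.73 in control. The part of cell make-up and of the hour of collection in the results below was not tested.

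At 3 d after 15 Gy the intestine had more RNA of many crypt, fetal-like, Paneth and p53-target genes than control intestine. It had less RNA of many nutrient transporters, brush-border hydrolases, detoxifying enzymes, tuft cell genes and respiratory chain genes. Of 11118 genes tested, 3273 were called at an adjusted p under 0.05 in edgeR's quasi-likelihood test with Benjamini-Hochberg adjustment (29.4%). Of these, 1542 were higher (13.9%) and 1731 lower (15.6%) at 3 d, and 693 of the higher and 719 of the lower genes differed at least 2-fold. The median log2 fold change of all tested genes was 0.02. The split depends on the scale: limma on log2(FPKM + 1), without TMM factors, called 2331 higher and 827 lower. Its median over all genes was 0.18. The 6 compared libraries fitted alone gave 2142 calls. In 41.2% of the tested genes the libraries of the groups did not overlap, 20.8% higher and 20.4% lower at 3 d, and such separation is read below against these shares.

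Fut2, the α1,2-fucosyltransferase that attaches terminal fucose to glycans on the gut lining, had the smallest adjusted p among the 10 largest rises. It had 119, 229 and 205 CPM at 3 d, against 2.33, 1.87 and 1.46 CPM in control, a log2 difference of 6.61 ± 0.55 (edgeR adjusted p = 3.09e-08). The gene lies on chr7:45648591-45666394 (minus strand; positions here are from the deposited table and match GRCm38). Every library at 3 d was far above every control library. Nr0b2, which encodes the bile acid-responsive nuclear receptor SHP (chr4:133553376-133556536, plus strand), had 11.4, 15.6 and 8.02 CPM at 3 d and no count in the 3 control libraries. Set against a floor of 3 counts over the control group, its level was at least 803-fold higher at 3 d (edgeR adjusted p = 3.48e-05). Anxa10, a member of the annexin family, had 30.4, 26.1 and 28.9 CPM at 3 d, against 0.0463, 0 and 0.0596 CPM in control (9.63 ± 1.81, edgeR adjusted p = 0.000429). Both genes were thus abundant in the 3 libraries at 3 d and nearly or wholly absent from control; without control replicate 2 or 3 the difference of Anxa10 was 9.02 or 10.25.

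Cldn2, the claudin that forms cation- and water-permeable pores in tight junctions, had 122, 249.5 and 169 CPM at 3 d, against 2.39, 0.964 and 8.12 CPM in control (5.56 ± 1.28, edgeR adjusted p = 0.00255). Cybrd1, the duodenal ferric reductase, had 331, 172 and 123 CPM at 3 d, against 0.524, 1.78 and 0.701 CPM in control (7.69 ± 1.68, edgeR adjusted p = 0.00165). Ldhd, the mitochondrial D-lactate dehydrogenase, had 74.3, 65.002 and 40.8 CPM at 3 d, against 1.23, 0.857 and 0.924 CPM in control (5.90 ± 0.60, edgeR adjusted p = 3.44e-07). In all of these the groups did not overlap, and replicate 1 at 3 d was the highest for Cybrd1 and Ldhd but the lowest for Cldn2. Control replicate 3 was the highest control for Cldn2 and control replicate 2 for Cybrd1, and without them the differences were 6.75 for Cldn2 and 8.41 for Cybrd1. The other genes among the 10 largest rises were Atg9b, Tdpoz3, Gml2 and Mir8116, with log2 differences of 7.26 ± 1.36, 7.23 ± 1.33, 5.67 ± 0.70 and 5.84 ± 0.69. The control counts of Tdpoz3 came from replicate 3 alone. Mir8116 lies inside Ache on the same strand, and Atg9b, Ldhd and Gml2 overlap genes on the other strand. Whether the counting used strand is not given in the sources used here, so reads of such pairs cannot be told apart.

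Among the 10 largest falls, Slc5a4b, a sodium-coupled sugar carrier of the SGLT3 type (chr10:76057494-76110961, minus strand), had 0.962, 1.44 and 1.42 CPM at 3 d, against 168, 125 and 111 CPM in control (-6.72 ± 0.41, edgeR adjusted p = 6e-10). Its neighbour and close copy Slc5a4a (chr10:76147451-76189265, plus strand) had 2.13, 3.23 and 3.45 CPM at 3 d, against 309, 248 and 160.1 CPM in control (-6.34 ± 0.48, edgeR adjusted p = 8.53e-09). All libraries at 3 d were near the bottom of the range for both, though reads shared between such copies may be split by the authors' counting. Maob, a mitochondrial monoamine oxidase, had 1.78, 3.25 and 4.46 CPM at 3 d, against 154, 135 and 127 CPM in control (-5.46 ± 0.47, edgeR adjusted p = 4.51e-08). Slc23a1, a sodium-coupled vitamin C transporter, had 5.096, 3.16 and 9.19 CPM at 3 d, against 250.4, 256 and 201 CPM in control (-5.34 ± 0.66, edgeR adjusted p = 4.9e-06). Neither gene had overlapping groups. The remaining 6 of the 10 largest falls were Car4, Dbp, Bco1, Cyp2c66, Cyp3a25 and Kcnj13, most of which are described with their groups below. Kcnj13, an inward-rectifier potassium channel, had 0.0987, 0.0452 and 0.521 CPM at 3 d, against 12.03, 10.3 and 2.49 CPM in control (-5.22 ± 1.66, edgeR adjusted p = 0.0215). Without replicate 1 at 3 d its edgeR adjusted p was 0.0777 and without replicate 2 at 3 d it was 0.0805, and without replicate 3 at 3 d its difference was -6.82. Kcnj13 and Slc23a1 overlap Gigyf2 and Paip2 on the other strand, so reads of these pairs cannot be told apart. Gigyf2 had 15122 counts over the 6 libraries, against 1768 for Kcnj13.

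**Figure D1:**
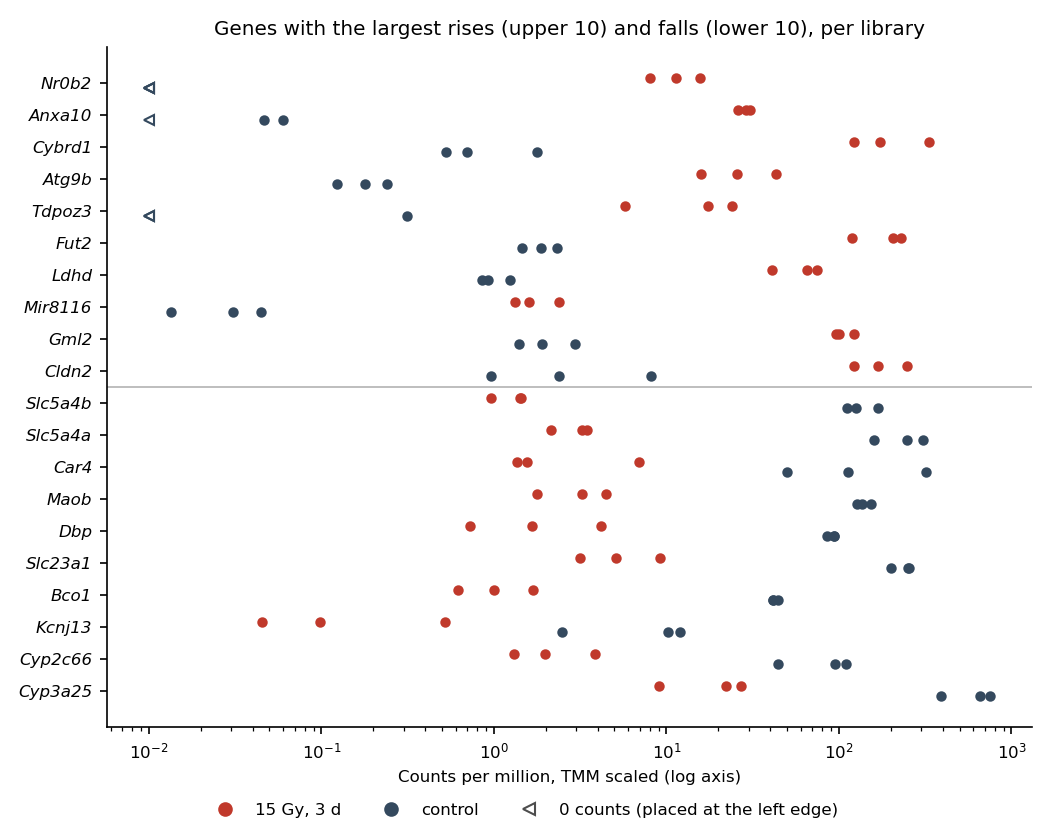
Level in each library, as CPM on a log scale, of the 10 genes with the largest rises and the 10 with the largest falls at 15 Gy 3 d against control among the called genes that met the level and overlap criteria. Each point is 1 library, 3 at 3 d and 3 in control, and open triangles at the left edge are libraries with 0 counts. The points of the groups do not overlap in any of the 20 genes, with Fut2 at 119, 229 and 205 CPM at 3 d and 2.33, 1.87 and 1.46 CPM in control.

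Targets of p53, the transcription factor activated by DNA breaks, were raised in part at 3 d. Of 37 listed genes 30 were tested, 15 were higher, 3 were lower, and the median log2 difference was 0.53, against 0.02 over all tested genes. Ccng1, encoding cyclin G1, had 74.4, 99.8 and 87.6 CPM at 3 d, against 19.6, 21.8 and 17.1 CPM in control (2.16 ± 0.15, edgeR adjusted p = 5.55e-09). Phlda3, an inhibitor of Akt signalling, had 6.35, 4.94 and 9.18 CPM at 3 d, against 0, 0.0535 and 0 CPM in control (8.36 ± 0.78, edgeR adjusted p = 2.84e-07), the control level resting on 4 counts, all in replicate 2. Aen, a nuclease of apoptotic DNA breakdown, had 8.66, 8.14 and 9.77 CPM at 3 d, against 1.14, 0.991 and 1.61 CPM in control (2.83 ± 0.34, edgeR adjusted p = 3.51e-06). All 3 genes were higher in each library at 3 d than in any control library, as were Psrc1 (8.11 ± 0.95) and the kinase gene Plk2 (2.19 ± 0.29). Psrc1 had 4 counts over the control libraries. Sesn1, a sestrin that restrains mTORC1, moved the other way, with 27.02, 20.1 and 27.3 CPM at 3 d, against 113, 118 and 106 CPM in control (-2.18 ± 0.19, edgeR adjusted p = 6.29e-08). Cdkn1a, the p21 cell-cycle inhibitor, had 413, 364 and 552 CPM at 3 d, against 407, 406 and 425 CPM in control (0.10 ± 0.18, edgeR adjusted p = 0.715). Mdm2, the ubiquitin ligase that removes p53, had 49.1, 40.96 and 53.04 CPM at 3 d, against 42.8, 48.1 and 62.5 CPM in control (-0.10 ± 0.17, edgeR adjusted p = 0.71). The libraries of the groups overlapped for Cdkn1a and Mdm2. The count of lower targets fell to 1 without replicate 2 at 3 d or without control replicate 2. A full p53 element was found in 1 of 41 promoter windows of the list, that of Cdkn1a, and in 0.0731% of all 32851 windows of 250 bases before to 50 after a gene start.

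Among genes of cell death, 9 of 26 tested were higher at 3 d and 1 was lower, of 29 listed. Over all tested genes 13.9% were higher and 15.6% lower. Casp8, the initiator caspase of death receptors, had 347, 280.3 and 334 CPM at 3 d, against 169.7, 174 and 170.5 CPM in control (0.90 ± 0.21, edgeR adjusted p = 0.00239). Ripk3, the kinase of necroptosis, had 65.3, 76.7 and 75.1 CPM at 3 d, against 48.2, 36.2 and 28.2 CPM in control (0.95 ± 0.22, edgeR adjusted p = 0.00319). Tnfrsf10b, the TRAIL receptor and also a p53 target, had 9.54, 10.7 and 10.5 CPM at 3 d, against 5.55, 5.34 and 4.87 CPM in control (0.96 ± 0.22, edgeR adjusted p = 0.00263). The groups were apart in each of these, by less than 2-fold on average. With the 6 libraries fitted alone, 5 genes of this list were higher; the count of lower genes was 0 without replicate 2 at 3 d and 2 without control replicate 3. Of the list of secreted senescence and fibrosis signals, 3 of 12 tested were higher and 9 not called, near the 29.4% called over all tested genes. Among them the stress hormone gene Gdf15 had 1.86, 1.95 and 2.62 CPM at 3 d, against 0.0925, 0.161 and 0.164 CPM in control (3.93 ± 0.61, edgeR adjusted p = 6.52e-05). DNA repair genes gave 3 higher and 8 not called of 11 tested, also near the share over all tested genes, and 1 higher without replicate 2 at 3 d. Xrcc5, the Ku80 subunit that binds broken ends, had 2.25, 4.49 and 3.75 CPM at 3 d, against 0.709, 0.857 and 1.36 CPM in control (1.84 ± 0.37, edgeR adjusted p = 0.000817).

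The called crypt stem cell and Wnt target genes were all higher at 3 d. Of 24 listed genes 17 were tested, 12 were higher and 5 were not called, with a median log2 difference of 1.69, the same with Ascl2, which had no count in control, set at its lower bound. Myc, the growth-promoting transcription factor and Wnt target, had 11.9, 9.66 and 14.1 CPM at 3 d, against 0.416, 0.509 and 0.79 CPM in control (4.37 ± 0.73, edgeR adjusted p = 0.00013). Sox9, a transcription factor of crypt progenitors and Paneth cells (chr11:112782224-112787760, plus strand), had 16.6, 15.2 and 15.1 CPM at 3 d, against 1.74, 1.95 and 0.82 CPM in control (3.37 ± 0.51, edgeR adjusted p = 4.91e-05). Cd44, a hyaluronan receptor of crypt cells, had 19.5, 16.8 and 30.2 CPM at 3 d, against 2.96, 3.11 and 3.12 CPM in control (2.86 ± 0.58, edgeR adjusted p = 0.000891). Each library at 3 d stood several-fold above each control library for these genes. The receptor gene Ephb2, which places cells along the crypt, rose by 2.21 ± 0.38, the surface protein gene Prom1 by 1.68 ± 0.30, and Bmi1, a Polycomb subunit linked to reserve stem cells, by 0.95 ± 0.15. Lgr5, the marker of active crypt stem cells, was too low to be tested, with 0.37, 0.384 and 0.432 CPM at 3 d, against 0.231, 0.107 and 0.343 CPM in control. Olfm4, another stem cell marker, had 0.975, 0.746 and 2.03 CPM at 3 d, against 1.77, 0.455 and 6.62 CPM in control (-1.24 ± 1.23, edgeR adjusted p = 0.486), with control replicate 3 the highest. Hopx, a homeodomain protein of reserve stem cells, was not called (0.95 ± 0.49, edgeR adjusted p = 0.157).

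Genes of cell division did not move as a block. Of 22 replication genes 13 were tested, 4 were higher and 1 lower, not far from the 29.4% called over all tested genes. The count of higher genes was 2 without replicate 3 at 3 d, 2 without control replicate 1 and 1 without control replicate 2. Mcm4 and Mcm6 are subunits of the same replicative helicase. Mcm4 had 4.37, 5.19 and 3.89 CPM at 3 d, against 2.67, 2.16 and 2.04 CPM in control (0.97 ± 0.28, edgeR adjusted p = 0.0118). Mcm6 had 4.49, 3.95 and 3.88 CPM at 3 d, against 10.3, 12.9 and 10.3 CPM in control (-1.44 ± 0.26, edgeR adjusted p = 0.00026). Their groups were apart in opposite directions. Of 10 tested mitosis genes 9 were not called and 1 was lower: Birc5, which encodes survivin, had 1.83, 1.99 and 3.396 CPM at 3 d, against 6.92, 6.12 and 8.41 CPM in control (-1.57 ± 0.40, edgeR adjusted p = 0.00533). Mki67, the proliferation antigen Ki-67, had 3.74, 4.77 and 9.55 CPM at 3 d, against 5.58, 3.08 and 9.06 CPM in control (0.03 ± 0.59, edgeR adjusted p = 0.98), and its libraries spread widely within both groups.

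Of 26 genes of the fetal-like or revival programme 22 were tested, 20 were higher and 2 not called, and the median log2 difference was 1.81. Many of these genes are targets of YAP or AP-1 in injured epithelium. The promoters of Plaur, the urokinase receptor gene, and F3, the gene of tissue factor, both higher at 3 d and chosen after their values were seen, are shown because each holds the AP-1 motif TGANTCA, in capitals. The windows run from 250 bases before to 50 after the gene start (RefSeq, GRCm38.p6; Plaur chr7:24462233-24462532, plus strand; F3 chr3:121723287-121723586, plus strand).
Plaur: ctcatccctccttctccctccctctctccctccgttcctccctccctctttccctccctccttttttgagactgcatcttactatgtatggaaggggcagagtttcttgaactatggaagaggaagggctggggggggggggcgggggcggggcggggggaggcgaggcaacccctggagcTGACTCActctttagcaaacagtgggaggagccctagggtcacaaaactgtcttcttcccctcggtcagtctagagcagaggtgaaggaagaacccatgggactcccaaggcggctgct
F3: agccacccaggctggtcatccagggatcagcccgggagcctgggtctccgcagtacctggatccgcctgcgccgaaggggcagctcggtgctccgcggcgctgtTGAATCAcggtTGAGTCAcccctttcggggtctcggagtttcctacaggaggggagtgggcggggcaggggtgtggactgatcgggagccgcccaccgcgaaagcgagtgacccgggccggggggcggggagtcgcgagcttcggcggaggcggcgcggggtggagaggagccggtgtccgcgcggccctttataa
The motif reads the same on both strands. It was in 5 of 21 windows of the list (5 of 16 genes with a window: Emp1, F3, Il1rn, Plaur and Sprr1a) and in 7.81% of all 32851 windows of this length. A match describes the letters only and shows no binding. Plaur had 12.7, 9.09 and 13.2 CPM at 3 d, against 3.79, 3.32 and 2.22 CPM in control (1.91 ± 0.48, edgeR adjusted p = 0.00486). F3 had 10.9, 10.5 and 14.6 CPM at 3 d, against 1.33, 1.62 and 3.18 CPM in control (2.56 ± 0.69, edgeR adjusted p = 0.00779). Both genes were higher in every library at 3 d than in any control library.

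Clu, the clusterin gene that marks revival stem cells, had 31.995, 46.2 and 70.1 CPM at 3 d, against 6.38, 3.32 and 2.71 CPM in control (3.58 ± 0.76, edgeR adjusted p = 0.00127). Ly6a, which encodes the fetal-like surface marker Sca-1, had 26.1, 31.8 and 41.01 CPM at 3 d, against 6.97, 3.199 and 5.098 CPM in control (2.70 ± 0.52, edgeR adjusted p = 0.000568). Ly6d, of the same gene family, had 41.9, 31.9 and 186 CPM at 3 d, against 3.15, 1.14 and 1.297 CPM in control (5.54 ± 1.01, edgeR adjusted p = 0.000316). Replicate 3 was the highest at 3 d for all of these, most of all for Ly6d, and no control library reached any library at 3 d. Without replicate 3 at 3 d the difference of Ly6d was 4.31, and without control replicate 1 it was 6.16. Anxa3, an annexin, had 10.8, 8.69 and 11.6 CPM at 3 d, against 2.05, 2.86 and 1.65 CPM in control (2.24 ± 0.36, edgeR adjusted p = 8.95e-05). Msln, the mesothelin gene, had 4.32, 4.56 and 9.08 CPM at 3 d, against 0.0617, 0 and 0 CPM in control (8.13 ± 1.63, edgeR adjusted p = 0.000755), the control level resting on 4 counts, all in replicate 1. These were also separated without overlap, with a near absence in control for Msln. S100a6, a calcium-binding protein gene of the same list, was not called (0.78 ± 0.43, edgeR adjusted p = 0.185).

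Ligands of the EGF receptor, which drive growth of crypt cells, were divided. Areg, the amphiregulin gene, had 156, 130.1 and 121 CPM at 3 d, against 34.7, 39.1 and 44.04 CPM in control (1.79 ± 0.20, edgeR adjusted p = 1.77e-06). Hbegf, encoding heparin-binding EGF, had 28.9, 26.2 and 53.4 CPM at 3 d, against 119.9, 145 and 112 CPM in control (-1.79 ± 0.51, edgeR adjusted p = 0.012). Areg was thus higher in every library at 3 d and Hbegf lower in every one, although the call of Hbegf was lost without replicate 1 or replicate 2 at 3 d (edgeR adjusted p = 0.0514 and 0.0561). Of the 10 tested genes of receptor and ligands, 4 were higher and 1 lower, and 2 were higher without replicate 3 at 3 d, without control replicate 2 or without control replicate 3. Ret, the receptor of glial cell line-derived neurotrophic factors, was the 1 tested gene of 11 neuronal and glial markers and had 35.3, 47.9 and 54.95 CPM at 3 d, against 4.06, 4.38 and 1.804 CPM in control (3.75 ± 0.48, edgeR adjusted p = 6.7e-06). The pan-neuronal and glial markers Elavl4, Sox10 and Vip were at 0 in both groups, while the sum over the 11 markers, mostly Ret, was 36.4 to 55.9 CPM at 3 d and 2.34 to 4.47 CPM in control.

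**Figure D2:**
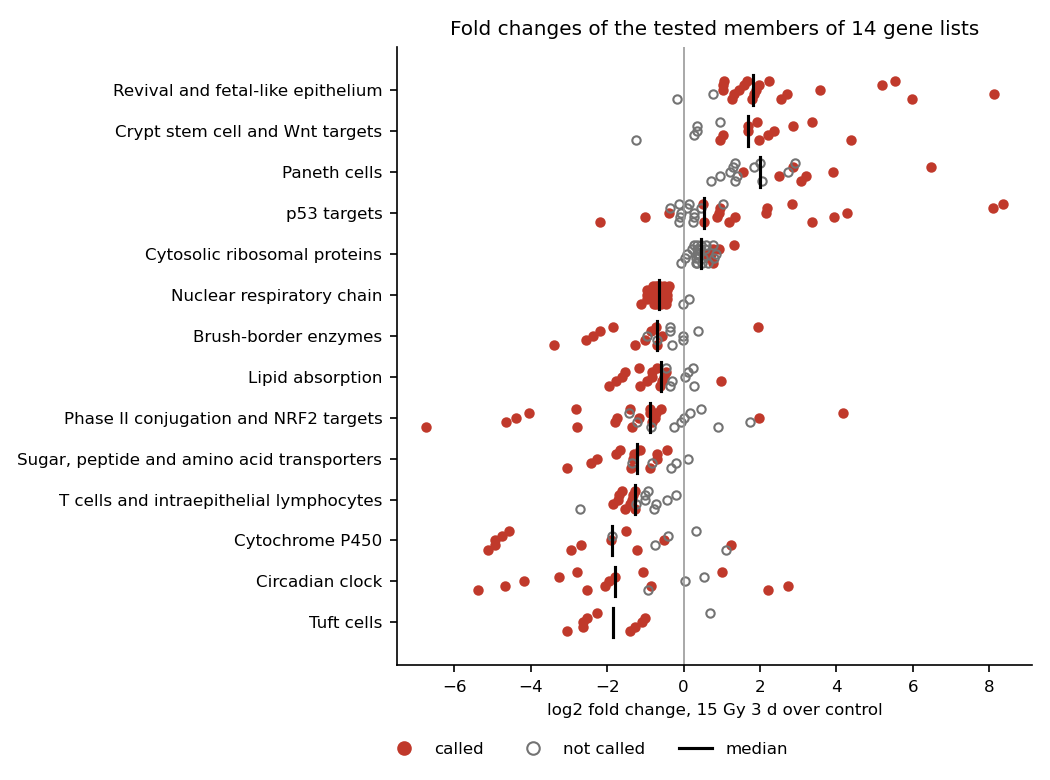
Log2 fold change of 15 Gy 3 d over control for each tested member of 14 gene lists, with filled points for called genes, open points for genes that were not called and a bar at the list's median. Most revival and crypt members lie right of 0, with medians of 1.81 and 1.69, and cytochrome P450 and tuft members mostly left of 0, with medians of -1.88 and -1.84; genes without any count in 1 of the groups are not drawn.

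Paneth cells, which sit beside the stem cells and secrete lysozyme and α-defensins, had more marker RNA at 3 d. Of 20 markers 19 were tested, 7 were higher and 12 not called, and the median log2 difference was 1.997. Mmp7, the protease that activates α-defensins, had 34.3, 46.6 and 102 CPM at 3 d, against 4.03, 3.71 and 4.502 CPM in control (3.90 ± 0.82, edgeR adjusted p = 0.00118). Pla2g2a, a phospholipase gene annotated as a polymorphic pseudogene, had 6.61, 8.87 and 14.6 CPM at 3 d, against 0, 0.0535 and 0.283 CPM in control (6.46 ± 1.84, edgeR adjusted p = 0.0115). It overlaps Pla2g5 on the other strand, which had 3088 counts over the 6 libraries against 2491 for Pla2g2a, so reads of this pair cannot be told apart. Lyz1, the Paneth lysozyme gene, had 198, 169.6 and 360.3 CPM at 3 d, against 44.1, 14.001 and 41.7 CPM in control (2.87 ± 0.84, edgeR adjusted p = 0.0133). Replicate 3 was the highest at 3 d for all of them, and all libraries at 3 d exceeded all control libraries. The difference of Mmp7 was 3.31 without replicate 3 at 3 d, and that of Pla2g2a was 8.40 without control replicate 3. The defensin genes are close copies whose reads may be split between them: Defa17 (3.21 ± 0.96), Defa24 (2.49 ± 0.85) and Defa30 (3.06 ± 1.04) were called higher, each losing its call in 2 or more of the fits that left out a library, and Defa3 was not called (2.92 ± 1.29, edgeR adjusted p = 0.0964). The count of 7 higher markers was 3 without replicate 3 at 3 d, 4 without control replicate 1 and 2 without control replicate 2, and the adjusted p of Lyz1 was 0.061 without control replicate 2.

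Of 18 tested antimicrobial and surface-defence genes 4 were higher and 2 lower, near the 29.4% called over all tested genes. Reg3b, a bactericidal lectin (chr6:78370657-78373466, plus strand), had 29045, 46269.5 and 25876 CPM at 3 d, against 10086, 5266 and 11429.7 CPM in control (1.92 ± 0.45, edgeR adjusted p = 0.00275). Its neighbour Reg3g had 7999, 9607 and 10435 CPM at 3 d, against 5907, 3051 and 7417 CPM in control (0.78 ± 0.45, edgeR adjusted p = 0.213). Reg3a, of the same family, had 24.4, 39.96 and 32.3 CPM at 3 d, against 104, 75.7 and 164 CPM in control (-1.83 ± 0.33, edgeR adjusted p = 0.000294). Reg3b was high in every library at 3 d and Reg3a low in every one, while Reg3g was not called and its lowest library at 3 d lay close to its highest control library. Reg4 also rose, by 0.99 ± 0.21. Pigr, which carries IgA across the epithelium, had 1925, 2778 and 3032 CPM at 3 d, against 3988, 4412 and 4096 CPM in control (-0.69 ± 0.19, edgeR adjusted p = 0.0104), and was not called without replicate 1 at 3 d (edgeR adjusted p = 0.0673). Of 8 tested complement genes 2 were higher, also near the share over all tested genes. These were Cfi (1.69 ± 0.30) and Cd55 (1.02 ± 0.21), which both restrain complement. Mbl2, a lectin that starts complement activation, had 24.7, 137 and 70.4 CPM at 3 d, against 43.4, 50.4 and 38.3 CPM in control (0.81 ± 0.58, edgeR adjusted p = 0.312), with replicate 1 at 3 d below every control library.

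Digestive and absorptive genes were mostly lower. Of 20 brush-border genes, all tested, 11 were lower and 1 higher (median -0.71). Lct, the lactase gene (chr1:128284756-128328318, minus strand), had 550.2, 474 and 383 CPM at 3 d, against 2799, 3130.4 and 2364 CPM in control (-2.56 ± 0.22, edgeR adjusted p = 4.39e-08). Sis, sucrase-isomaltase, had 724, 1468 and 1589.8 CPM at 3 d, against 6389, 5564 and 5194 CPM in control (-2.18 ± 0.34, edgeR adjusted p = 7.22e-05). Mme, the peptidase neprilysin, had 675, 512 and 600.3 CPM at 3 d, against 2047, 2322 and 2038 CPM in control (-1.84 ± 0.16, edgeR adjusted p = 4.93e-08). For each of these enzymes all libraries at 3 d were below all control libraries, from over 3-fold to over 5-fold on average. Vil1, which bundles actin in microvilli, fell by less, with 2414, 2313 and 2529 CPM at 3 d, against 4824, 4584 and 3583 CPM in control (-0.84 ± 0.14, edgeR adjusted p = 0.000103). Tm4sf20, a tetraspanning membrane protein gene, was the member that rose (1.95 ± 0.32, edgeR adjusted p = 9.3e-05). Alpi, intestinal alkaline phosphatase, had 4148, 2802 and 2101 CPM at 3 d, against 2529, 2366 and 2046 CPM in control (0.38 ± 0.41, edgeR adjusted p = 0.524), and Anpep, aminopeptidase N, was not called either (-0.69 ± 0.27, edgeR adjusted p = 0.0611).

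Carriers of sugars, peptides and amino acids gave 13 lower and 5 not called of 18 tested (median -1.23). Slc5a11, a sodium-coupled inositol and glucose carrier, had 35.2, 43.8 and 41.3 CPM at 3 d, against 212, 184 and 179 CPM in control (-2.26 ± 0.15, edgeR adjusted p = 2.4e-09). Slc7a8, a basolateral neutral amino acid exchanger, had 132, 159 and 195 CPM at 3 d, against 929, 812 and 866 CPM in control (-2.42 ± 0.20, edgeR adjusted p = 3.09e-08). Slc5a1, the main apical glucose carrier SGLT1, had 2157, 3360.0 and 3423 CPM at 3 d, against 8677, 7372 and 7138 CPM in control (-1.37 ± 0.18, edgeR adjusted p = 8.37e-06). None of these groups overlapped. The basolateral glucose carrier gene Slc2a2 fell with it (-1.30 ± 0.20), and Slc6a20a, a proline carrier gene, fell further (-3.04 ± 0.43). Slc6a19, the apical neutral amino acid carrier, had 1786, 1635 and 2967 CPM at 3 d, against 2895, 2714 and 2388 CPM in control (-0.32 ± 0.19, edgeR adjusted p = 0.223), with replicate 3 at 3 d the highest of the 6.

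Lipid absorption genes gave 14 lower and 1 higher of 22 tested (median -0.58), with 9 lower without replicate 2 at 3 d and 0 higher without control replicate 1. Npc1l1, the cholesterol importer, had 434, 329.9 and 665 CPM at 3 d, against 2195, 2126 and 1254 CPM in control (-1.96 ± 0.26, edgeR adjusted p = 1.16e-05). Abcg5, a subunit of the sterol exporter, had 128, 149 and 171 CPM at 3 d, against 565, 553 and 403 CPM in control (-1.76 ± 0.20, edgeR adjusted p = 1.21e-06). Import and export genes of sterols were thus both lower in every library at 3 d. Mogat2, an enzyme of triglyceride resynthesis, was called lower (-0.52 ± 0.10), but not by limma on log2(FPKM + 1), where its difference was -0.27 (limma adjusted p = 0.139). Apoa4, an apolipoprotein of chylomicrons, had 52392, 37021 and 50841 CPM at 3 d, against 38986, 45649.5 and 34180.4 CPM in control (0.24 ± 0.21, edgeR adjusted p = 0.431), and Apoa1 was not called (-0.45 ± 0.24, edgeR adjusted p = 0.167). Of genes that follow position along the gut, Cubn and Amn, the receptor pair for vitamin B12 in distal small intestine, fell: Cubn had 17.8, 12.9 and 35.6 CPM at 3 d, against 566, 699 and 300.2 CPM in control (-4.56 ± 0.58, edgeR adjusted p = 7.13e-06). Distal markers gave 4 lower and 10 not called of 14 tested, near the 29.4% called in either direction over all tested genes. Proximal markers gave 4 higher and 6 lower of 15 tested, with 1 higher without replicate 1 at 3 d or control replicate 2 and 2 without control replicate 1.

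**Figure D3:**
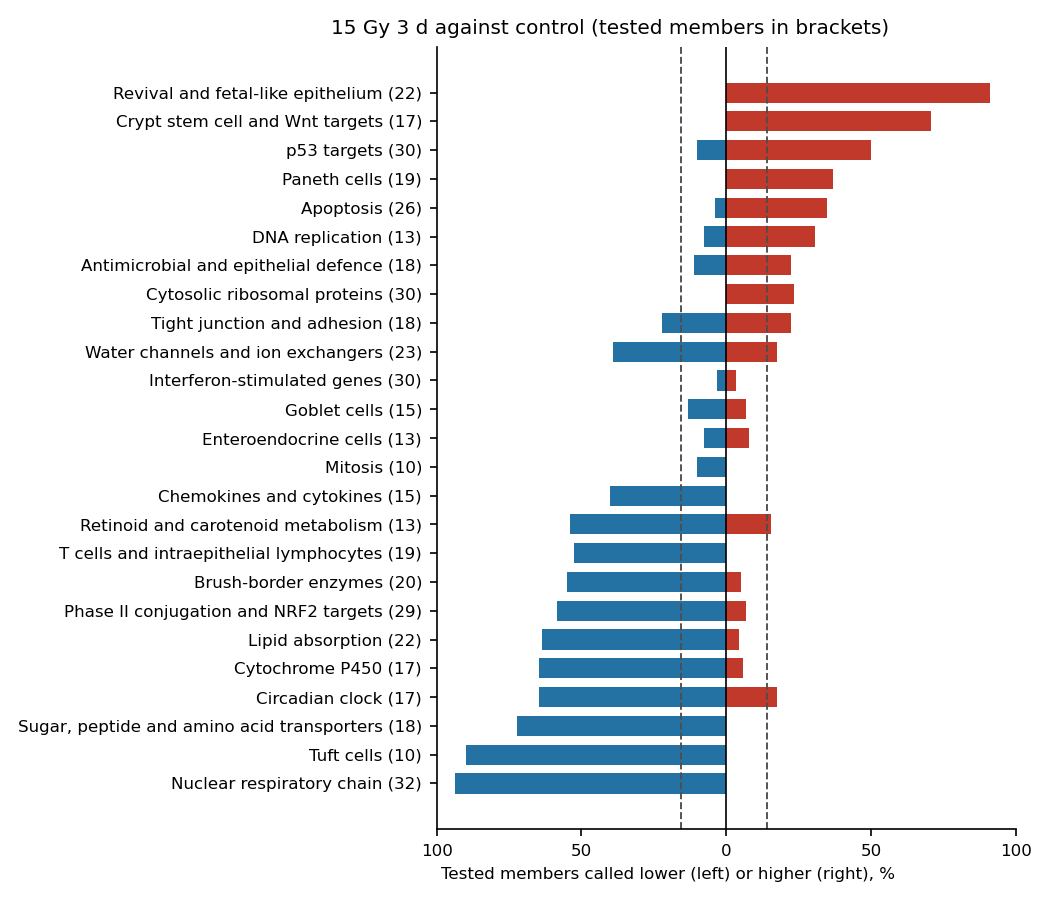
Share of tested members of 25 gene lists that were called lower (left) or higher (right) at 15 Gy 3 d against control, in percent, with the number tested in brackets; dashed lines mark the shares over all tested genes, 15.6% lower and 13.9% higher. Revival, crypt and p53 lists reach furthest to the right, and respiratory chain, tuft and transporter lists furthest to the left.

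Detoxifying enzymes were mostly lower too. Of 17 tested cytochrome P450 genes 11 were lower and 1 higher, with a median of -1.88. Cyp2b10, a target of the xenobiotic receptor CAR, had 39.3, 12.6 and 18.6 CPM at 3 d, against 436, 689 and 777 CPM in control (-4.75 ± 0.43, edgeR adjusted p = 8.6e-08). Cyp3a25, of the drug-metabolising 3A family, had 27.1, 22.2 and 9.05 CPM at 3 d, against 388, 751 and 656 CPM in control (-4.94 ± 0.45, edgeR adjusted p = 9.8e-08). Cyp2c66 had 3.85, 1.98 and 1.31 CPM at 3 d, against 44.2, 94.96 and 109 CPM in control (-5.12 ± 0.82, edgeR adjusted p = 8.44e-05). Every library at 3 d was low for these, and without replicate 1 at 3 d the difference of Cyp2b10 was -5.34. Cyp4b1 was the member that rose, with 734, 598 and 733 CPM at 3 d, against 356, 263 and 258 CPM in control (1.24 ± 0.15, edgeR adjusted p = 3.87e-06). Cyp3a13 was not called (0.33 ± 0.23, edgeR adjusted p = 0.308). Conjugating enzymes and NRF2 targets gave 17 lower and 2 higher of 29 tested (median -0.87). Ugt2b34, a glucuronosyltransferase, had 164, 129 and 145 CPM at 3 d, against 1018, 1028 and 967 CPM in control (-2.79 ± 0.21, edgeR adjusted p = 1.1e-08), and Ces2a, a carboxylesterase, had 16.6, 7.72 and 4.93 CPM at 3 d, against 156, 264 and 310.5 CPM in control (-4.64 ± 0.67, edgeR adjusted p = 2.86e-05). Both stood apart in all libraries, and without replicate 1 at 3 d the difference of Ces2a was -5.26. The sulfotransferase gene Sult1b1 (-0.88 ± 0.12) and Gstp1, a glutathione transferase gene with close copies (-1.78 ± 0.26), also fell.

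Genes of retinoid metabolism and of glucose production were mostly lower as well. Of 13 tested retinoid and carotenoid genes 7 were lower and 2 higher (median -0.90). Bco1, which cleaves β-carotene to retinal, had 1.69, 0.995 and 0.623 CPM at 3 d, against 44.2, 41.4 and 41.5 CPM in control (-5.26 ± 0.68, edgeR adjusted p = 7.61e-06). Isx, the homeobox repressor of Bco1, had 125, 123 and 114 CPM at 3 d, against 40.8, 44.5 and 69.6 CPM in control (1.22 ± 0.17, edgeR adjusted p = 1.99e-05). Rdh7, a retinol dehydrogenase, had 5.03, 6.005 and 2.59 CPM at 3 d, against 73.3, 74.2 and 135 CPM in control (-4.37 ± 0.37, edgeR adjusted p = 3.85e-08). Isx was high where Bco1 was low, in every library. Of 6 gluconeogenesis genes 4 were lower (median -1.71). Pck1, the rate-setting enzyme, had 24.6, 72.99 and 119 CPM at 3 d, against 795, 1124 and 1939.7 CPM in control (-4.16 ± 0.66, edgeR adjusted p = 7.85e-05), and Fbp1 had 1.53, 1.42 and 2.26 CPM at 3 d, against 16.3, 17.9 and 26.1 CPM in control (-3.53 ± 0.32, edgeR adjusted p = 9.55e-08). Both were lower in all 3 libraries. G6pc was called (-1.63 ± 0.50), but its groups overlapped and without control replicate 3 its difference was -0.34 (edgeR adjusted p = 0.536). Its edgeR adjusted p was 0.0842 without replicate 1 at 3 d and 0.0714 without replicate 2 at 3 d, and its difference was -2.22 without replicate 3 at 3 d.

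Of 10 tested iron genes, Cybrd1 and Slc40a1 were higher and the others were not called, a share below the 29.4% called over all tested genes. Slc40a1, the iron exporter ferroportin, had 315, 89.6 and 35.1 CPM at 3 d, against 2.91, 3.17 and 5.93 CPM in control (5.19 ± 1.78, edgeR adjusted p = 0.0322). Replicate 1 at 3 d was several times the others, and without it the difference was 3.96 (edgeR adjusted p = 0.105). The edgeR adjusted p was 0.0993, 0.097 and 0.0701 without control replicates 1, 2 and 3. Genes of fatty acid oxidation gave 5 lower and 2 higher of 20 tested, near the 29.4% called over all tested genes. The count of lower ones was 3 without replicate 3 at 3 d or control replicate 2 and 2 with the 6 libraries alone. Acadm, the medium-chain acyl-CoA dehydrogenase, had 33.2, 37.6 and 41.01 CPM at 3 d, against 83.1, 89.96 and 91.7 CPM in control (-1.24 ± 0.10, edgeR adjusted p = 2.13e-08). Acadl, the long-chain enzyme, had 527, 552 and 374 CPM at 3 d, against 44.6, 47.5 and 108 CPM in control (2.86 ± 0.39, edgeR adjusted p = 1.3e-05). The groups were apart in opposite directions for these dehydrogenases.

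Nuclear genes of the respiratory chain fell nearly as a whole, each by a small amount. Of 32 genes, all tested, 30 were lower and 2 not called, with a median of -0.65. Ndufb9, a subunit of complex I, had 80.1, 70.2 and 71.9 CPM at 3 d, against 142, 135 and 150.4 CPM in control (-0.95 ± 0.10, edgeR adjusted p = 4.48e-07). Cox5b, of complex IV, had 125, 106 and 97.2 CPM at 3 d, against 209.7, 185 and 244 CPM in control (-0.96 ± 0.13, edgeR adjusted p = 1.59e-05). Sdhb, of complex II, had 149, 141 and 121 CPM at 3 d, against 232, 229 and 220.3 CPM in control (-0.73 ± 0.11, edgeR adjusted p = 4.8e-05). All were lower in every library at 3 d. Cycs, which encodes cytochrome c, was not called (0.15 ± 0.15, edgeR adjusted p = 0.481). The count depended on the fit: 16 were lower with the 6 libraries alone and 9 with limma on log2(FPKM + 1). None of the 13 mitochondrially encoded genes was called in edgeR's test (median -0.74), with 4 lower at an unadjusted p under 0.05, 9 lower with the 6 libraries alone, 1 lower in DESeq2 and none in limma. Of 30 cytosolic ribosomal protein genes 7 were higher and 23 not called (median 0.47), against 13.9% higher and 15.6% lower over all tested genes. However, 0 were higher without replicate 3 at 3 d or without control replicate 2, 1 without control replicate 1, 2 without replicate 2 at 3 d, 12 without control replicate 3 and 20 with limma on log2(FPKM + 1).

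Water and ion transport genes changed in both directions, with 4 higher and 9 lower of 23 tested. Aqp1, a water channel, had 16.1, 17.2 and 25.9 CPM at 3 d, against 454, 559.7 and 414 CPM in control (-4.59 ± 0.62, edgeR adjusted p = 1.2e-05). Car4, a membrane carbonic anhydrase, had 1.36, 1.56 and 6.97 CPM at 3 d, against 113, 50.2 and 321 CPM in control (-5.61 ± 0.72, edgeR adjusted p = 7.24e-06). Slc9a3, the apical sodium-proton exchanger NHE3, had 722, 722 and 743 CPM at 3 d, against 213, 199.8 and 165 CPM in control (1.92 ± 0.31, edgeR adjusted p = 9.34e-05). Slc9a3 was higher in all libraries at 3 d while Aqp1 and Car4 were lower in all. Without replicate 3 at 3 d the difference of Car4 was -6.79, and without control replicate 3 it was -4.63. Guca2b, the uroguanylin gene, also fell (-1.30 ± 0.28), and Slc26a6, an anion exchanger gene, rose by 0.99 ± 0.20. Clca4b was not called (-0.39 ± 0.29, edgeR adjusted p = 0.344). Tight junction and adhesion genes gave 4 higher and 4 lower of 18 tested, against 13.9% higher and 15.6% lower over all tested genes. While Cldn2 rose, Cldn4, a barrier-forming claudin, had 182, 88.5 and 221 CPM at 3 d, against 772, 711 and 536 CPM in control (-2.04 ± 0.34, edgeR adjusted p = 0.000126). Cldn15, which like Cldn2 forms cation pores, had 329, 576 and 429 CPM at 3 d, against 1144, 952 and 1036 CPM in control (-1.23 ± 0.17, edgeR adjusted p = 2.04e-05). Both of these were lower in each library at 3 d. Cldn7 was not called (-0.45 ± 0.27, edgeR adjusted p = 0.227). The count of higher junction genes was 2 without replicate 1 at 3 d or without control replicate 3, and 8 with limma on log2(FPKM + 1).

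Circadian clock genes differed strongly. In the clock, ARNTL and CLOCK or NPAS2 bind E-boxes and drive the Per, Cry, Nr1d, Dbp and Tef genes, whose products close the loop. The promoters of Tef, a transcription factor of clock output, and Ciart, a repressor of ARNTL, both lower at 3 d and Ciart chosen after its values were seen, are shown because each holds the E-box CACGTG, in capitals (RefSeq, GRCm38.p6; Tef chr15:81802423-81802722, plus strand, 1 of its starts; Ciart chr3:95882179-95882478, minus strand, written along the gene's strand; the same window of 250 and 50 bases).
Tef: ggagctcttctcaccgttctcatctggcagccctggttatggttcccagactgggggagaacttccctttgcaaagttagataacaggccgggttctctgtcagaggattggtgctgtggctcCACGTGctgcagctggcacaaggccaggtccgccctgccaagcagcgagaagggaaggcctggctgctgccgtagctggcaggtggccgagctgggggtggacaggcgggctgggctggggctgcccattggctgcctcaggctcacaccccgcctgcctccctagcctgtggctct
Ciart: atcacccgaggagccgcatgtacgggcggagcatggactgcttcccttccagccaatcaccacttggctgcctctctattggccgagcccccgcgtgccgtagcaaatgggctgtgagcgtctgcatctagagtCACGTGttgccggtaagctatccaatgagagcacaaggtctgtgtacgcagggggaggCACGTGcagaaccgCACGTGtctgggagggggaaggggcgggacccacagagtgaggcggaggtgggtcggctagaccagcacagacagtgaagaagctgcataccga
This motif, which also reads the same on both strands, was in 6 of 20 windows of the clock list (5 of 15 genes with a window: Bhlhe41, Ciart, Cry1, Per1 and Tef) and in 7.15% of all 32851 windows.

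Of 18 clock genes 17 were tested, 11 were lower and 3 higher, with a median of -1.80. Dbp, a clock output factor, had 0.728, 4.196 and 1.65 CPM at 3 d, against 94.3, 93.1 and 85.5 CPM in control (-5.37 ± 1.11, edgeR adjusted p = 0.00102). Tef had 11.9, 20.3 and 18.9 CPM at 3 d, against 105, 95.99 and 93.99 CPM in control (-2.53 ± 0.44, edgeR adjusted p = 0.000207). Per2, a repressor of the loop, had 10.02, 10.1 and 11.3 CPM at 3 d, against 48.8, 50.7 and 118 CPM in control (-2.79 ± 0.38, edgeR adjusted p = 1.2e-05). These genes were low in every library at 3 d, and without replicate 2 at 3 d the difference of Dbp was -6.25. Arntl, the activator, had 38.1, 23.8 and 20.5 CPM at 3 d, against 3.49, 5.29 and 3.55 CPM in control (2.74 ± 0.51, edgeR adjusted p = 0.000389), high in every library at 3 d. Ciart had 0.0864, 0.441 and 0.369 CPM at 3 d, against 5.75, 4.35 and 6.19 CPM in control (-4.17 ± 1.26, edgeR adjusted p = 0.0164), and an edgeR adjusted p of 0.0662 without replicate 1 at 3 d. Per1 (-0.92 ± 0.39, edgeR adjusted p = 0.0789) and Cry1 (0.54 ± 0.24, edgeR adjusted p = 0.0932), which also hold the motif, were not called. The hour of collection is not given in the labels, so irradiation and time of day cannot be told apart here. Dbp overlaps Sphk2 on the other strand. The count of higher clock genes was 1 without replicate 1 at 3 d or without control replicate 1.

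Markers of T cells and intraepithelial lymphocytes were lower: of 25 markers 19 were tested, 10 were lower and 9 not called (median -1.28). Cd3e, a subunit of the T cell receptor complex, had 3.76, 2.66 and 3.08 CPM at 3 d, against 11.5, 12.4 and 6.71 CPM in control (-1.69 ± 0.42, edgeR adjusted p = 0.00461). Cd3d, another subunit, had 1.97, 0.95 and 1.63 CPM at 3 d, against 5.49, 7.91 and 2.89 CPM in control (-1.84 ± 0.45, edgeR adjusted p = 0.00402). Gzmb, the cytotoxic granzyme B, had 51.1, 26.9 and 30.9 CPM at 3 d, against 125, 163 and 66.6 CPM in control (-1.71 ± 0.47, edgeR adjusted p = 0.00902). Control replicate 3 was the lowest of its group in each, still above all libraries at 3 d. The count of lower markers was 3 without replicate 2 at 3 d and 4 without control replicate 2. Cd8a was not called (-0.73 ± 0.41, edgeR adjusted p = 0.202). Of 15 tested chemokine and cytokine genes 6 were lower and 9 not called. Ccl25, the epithelial chemokine that draws lymphocytes to the small intestine, had 233, 219 and 276 CPM at 3 d, against 594, 621 and 919 CPM in control (-1.55 ± 0.24, edgeR adjusted p = 7.17e-05). Il15, the cytokine that sustains intraepithelial lymphocytes, had 19.2, 12.1 and 9.42 CPM at 3 d, against 26.9, 27.9 and 31.04 CPM in control (-1.08 ± 0.26, edgeR adjusted p = 0.00374). Neither gene had overlapping groups.

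Of 12 neutrophil markers only 2 reached the level needed to be tested, and both were higher. Ltf, encoding lactoferrin, had 24.9, 21.7 and 15.6 CPM at 3 d, against 4.57, 3.01 and 5.46 CPM in control (2.25 ± 0.34, edgeR adjusted p = 3.89e-05). Ly6g had 0.79, 0.599 and 0.61 CPM at 3 d and no count in control, at least 45.9-fold higher against the floor of 3 counts over the group (edgeR adjusted p = 0.000128). Both were raised in all libraries at 3 d, although the granule genes Elane, Mpo and Ngp were at 0 there and Camp, at 0 in control, had 4 counts in 1 library at 3 d. Retnlg was at 0 at 3 d but not in control. Ly6g had no count at 6 h or 24 h either, so of the groups described only 3 d could bring it to the tested level. Hba-a1, a hemoglobin gene with a near-identical copy, had 0, 0.0792 and 0.521 CPM at 3 d, against 2.93, 1.63 and 4.04 CPM in control (-3.84 ± 1.13, edgeR adjusted p = 0.0138). Without replicate 2 at 3 d its edgeR adjusted p was 0.0611, and without replicate 3 at 3 d its difference was -6.09. Of 4 tested erythroid genes 3 were lower, but 1 without replicate 1 at 3 d, control replicate 1 or control replicate 3, and 0 without replicate 2 at 3 d. Of 30 tested interferon-stimulated genes 1 was higher and 1 lower (median 0.16), with 2 lower without replicate 1 at 3 d and 2 higher without replicate 2 at 3 d or control replicate 3. Ifi27l2b, an interferon-inducible gene of the gut epithelium, fell by 0.99 ± 0.20, and Isg15 was not called (0.41 ± 0.50, edgeR adjusted p = 0.585). Inflammasome and NF-kB genes gave 3 higher and 3 lower of 18 tested, near the 29.4% called over all tested genes, with 5 higher without control replicate 2. Among them were Casp1 (-0.98 ± 0.17), Naip5, a flagellin sensor (-0.96 ± 0.24), and Birc3 (-1.10 ± 0.15), which were lower, and Gsdmd, the pore-forming gasdermin D (0.60 ± 0.14), and Myd88, the Toll-like receptor adaptor (0.74 ± 0.15), which were higher; Myd88 overlaps Acaa1a.

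Of the other secretory lineages, tuft cells had less marker RNA at 3 d. Their markers gave 9 lower and 1 not called of 10 tested, of 16 listed (median -1.84). Sh2d6, an adaptor protein gene of tuft cells, had 0.901, 0.554 and 1.399 CPM at 3 d, against 7.31, 8.54 and 7.72 CPM in control (-3.05 ± 0.40, edgeR adjusted p = 9.6e-06). Siglecf had 0.777, 0.837 and 0.928 CPM at 3 d, against 5.58, 5.74 and 4.32 CPM in control (-2.62 ± 0.24, edgeR adjusted p = 7.5e-08). Alox5ap, which supports leukotriene synthesis, had 0.407, 0.588 and 0.572 CPM at 3 d, against 2.85, 1.86 and 2.88 CPM in control (-2.27 ± 0.23, edgeR adjusted p = 3.98e-07). The groups were far apart in all 3 genes. Trpm5, the taste cation channel of tuft cells, was the member not called (0.70 ± 0.27, edgeR adjusted p = 0.0512). It was called higher in DESeq2 (adjusted p = 0.0441), in both limma fits, with mitochondrially encoded genes left out, and without replicate 1 at 3 d, replicate 2 at 3 d or control replicate 1 (edgeR adjusted p = 0.0452, 0.022 and 0.0129). Goblet cell markers gave 2 lower and 1 higher of 15 tested, below the 29.4% called over all tested genes. Klk1 was lower (-2.11 ± 0.52), Fxyd3 higher (1.62 ± 0.28) and Tff3, the trefoil peptide of mucus, not called (-0.71 ± 0.32, edgeR adjusted p = 0.106). Enteroendocrine markers gave 1 higher and 1 lower of 13 tested, also below that share, and no higher one without replicate 1, 2 or 3 at 3 d or control replicate 3. Secretin, Sct, was lower (-1.07 ± 0.27) and Gip not called (0.10 ± 0.22, edgeR adjusted p = 0.777).

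The contrasts of 3 d with 24 h and with 6 h test whether the effects at these times differ, since the control cancels; they share the 3 d libraries with the contrast above. Against 24 h, 2813 genes were called (25.3%), 1241 higher (11.2%) and 1572 lower (14.1%) at 3 d. Of the revival genes 16 of 22 were higher than at 24 h and the others were not called, and of the crypt genes 8 of 17 were higher and the others not called. Tuft markers gave 8 lower of 10 and P450 genes 11 lower and 1 higher of 17. Fut2 averaged 1.89 CPM in control, 1.81 CPM at 6 h, 2.25 CPM at 24 h and 184 CPM at 3 d. Its difference between 3 d and 24 h was 6.35 ± 0.54 (edgeR adjusted p = 3.45e-08), so its rise lay between those times. Sox9 averaged 1.51 CPM in control, 3.103 CPM at 6 h, 2.48 CPM at 24 h and 15.6 CPM at 3 d (2.65 ± 0.50 for 3 d against 24 h, edgeR adjusted p = 0.000458). Lct averaged 2765 CPM in control, 4348 CPM at 6 h, 3150.1 CPM at 24 h and 469 CPM at 3 d (-2.75 ± 0.22, edgeR adjusted p = 1.84e-08). Sox9 and Lct, like Fut2, thus had their widest distance from control at 3 d. For 9 of the 10 largest rises the difference between 3 d and 24 h was itself past 3 on the log2 scale, Nr0b2 being the other (2.87 ± 0.91, edgeR adjusted p = 0.026). Nr0b2 averaged 3.42 CPM at 6 h and 1.59 CPM at 24 h. It was already called higher than control at both times (edgeR adjusted p = 0.000187 and 0.0059). Between 3 d and 6 h it was not called (1.77 ± 0.87, edgeR adjusted p = 0.104).

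Some genes differed from control already at 24 h. Ccng1 averaged 19.5 CPM in control, 52.6 CPM at 6 h, 108 CPM at 24 h and 87.3 CPM at 3 d (24 h against control 2.46 ± 0.16, edgeR adjusted p = 4.99e-09; 3 d against 24 h -0.30 ± 0.15, edgeR adjusted p = 0.145). Bco1 averaged 42.4 CPM in control, 26.7 CPM at 6 h, 1.703 CPM at 24 h and 1.103 CPM at 3 d (24 h against control -4.64 ± 0.66, edgeR adjusted p = 0.000324; 3 d against 24 h -0.62 ± 0.59, edgeR adjusted p = 0.482). Arntl averaged 4.11 CPM in control, 3.12 CPM at 6 h, 30.4 CPM at 24 h and 27.4 CPM at 3 d (24 h against control 2.89 ± 0.51, edgeR adjusted p = 0.00294; 3 d against 24 h -0.15 ± 0.48, edgeR adjusted p = 0.86). The libraries at 24 h differed for Arntl, which had 58.1, 15.8 and 17.3 CPM there, the first far above the others, and for Dbp, which had 0.483, 24.4 and 18.1 CPM. No difference between 24 h and 3 d was called for Ccng1, Bco1 or Arntl. Against 24 h, the p53 list gave 3 higher and 3 lower of 30, and T cell markers gave 1 higher and 18 not called of 19. Both were below the 25.3% called over all tested genes. Interferon-stimulated genes were higher at 3 d than at 24 h in 16 of 30 and not called in 14. Isg15 averaged 163 CPM in control, 183 CPM at 6 h, 65.7 CPM at 24 h and 216 CPM at 3 d (1.72 ± 0.52, edgeR adjusted p = 0.0182). Sterol and fatty acid synthesis genes gave 8 higher and 14 not called of 22. Mbl2 averaged 44.04 CPM in control, 96.5 CPM at 6 h, 648 CPM at 24 h and 77.3 CPM at 3 d, and was lower at 3 d than at 24 h (-3.07 ± 0.62, edgeR adjusted p = 0.00092). Isg15 and Mbl2 thus had their lowest and highest means at 24 h.

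Against 6 h, 5226 genes were called (47.0%), 2734 higher (24.6%) and 2492 lower (22.4%) at 3 d. Respiratory chain genes gave 29 lower of 32, P450 genes 14 lower and 1 higher of 17, and tuft markers 9 lower of 10. Clu averaged 4.14 CPM in control, 18.6 CPM at 6 h, 3.25 CPM at 24 h and 49.4 CPM at 3 d (1.41 ± 0.70 for 3 d against 6 h, edgeR adjusted p = 0.101). Plk2, the p53 target, averaged 3.09 CPM in control, 14.5 CPM at 6 h, 18.9 CPM at 24 h and 14.1 CPM at 3 d (-0.04 ± 0.28, edgeR adjusted p = 0.925). Neither was called between 3 d and 6 h, and the mean of Clu was lower at 24 h than at either time, with 1 of its 3 libraries at 6 h well above the others. Paneth markers gave 5 higher and 14 not called of 19 against 6 h. This was near the 24.6% higher and below the 47.0% called in either direction over all tested genes. Among these markers Mmp7 averaged 4.08 CPM in control, 2.01 CPM at 6 h, 4.51 CPM at 24 h and 60.8 CPM at 3 d (4.92 ± 0.86, edgeR adjusted p = 8.41e-05).

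**Figure D4:**
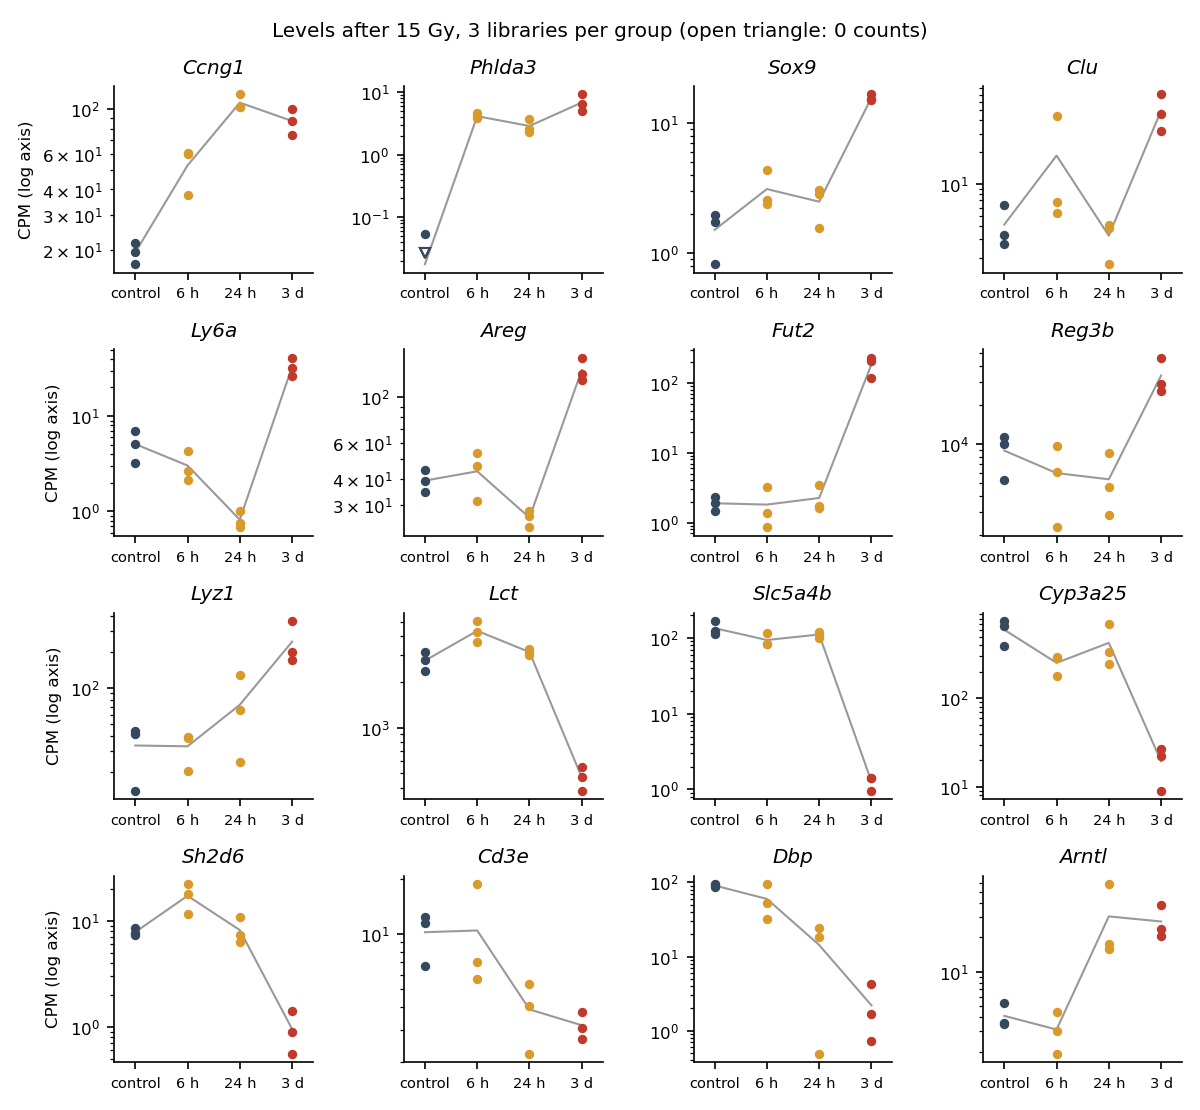
Level in each library, as CPM on a log scale, of 16 genes in control and at 6 h, 24 h and 3 d after 15 Gy, with 3 libraries a time a line through the means and open triangles for libraries with 0 counts. Fut2, Sox9 and Areg are highest at 3 d, Ccng1 and Arntl are already high at 24 h, and Lct and Slc5a4b fall at 3 d; Fut2 averages 1.89 CPM in control, 1.81 CPM at 6 h, 2.25 CPM at 24 h and 184 CPM at 3 d.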

How the data were processed

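RNA was total RNA extracted with Trizol (10 ug per sample, per the labels' protocols) from intestine of 27 libraries in 9 groups of 3. The authors deposited 1 table with read counts per gene and FPKM values (fragments per kilobase of transcript and 1e6 fragments) for every library; FPKM of 0.0001 stands for 0. Bowtie 0.12.2, HISAT2 2.0, StringTie 1.3.0 and the build mm8 are named per the submitters' processing notes, whereas the positions of 94.2% of the genes are those of GRCm38. How reads of copies were shared out and whether strand was used is stated in none of the sources at hand.

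The deposited counts were tested with edgeR 4.0.16 (R 4.3.3): TMM scaling, a quasi-likelihood fit over all 27 libraries by group, and Benjamini-Hochberg adjustment over the 11118 of 55401 genes that reached an FPKM of 1 in 3 or more libraries, called at an adjusted p under 0.05. The fit over all groups pools their spread, with a common biological coefficient of variation of 31.0%. A gene's standard error is its log2 fold change divided by the square root of its F. Totals were 57.4 to 87.1 M counts, and floors cover counting error only. On simulated data for 3 d against control, 200 of 11118 genes were changed, all with a mean count of at least 20. Of these, 4 of 76 genes changed 1.5-fold, 30 of 55 changed 2-fold and 61 of 69 changed 4-fold were called. In the data 3273 genes were called, which sets another cutoff, so these shares do not give the power of the real contrast. Alternatives were RLE scaling, no filter, a replicate block, other sets of libraries, DESeq2 1.42.0, limma 3.58.1 on log2(FPKM + 1) and log2(FPKM + 0.1), leaving out mitochondrially encoded genes and leaving out each library.

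The genes and the 53 gene lists were chosen with earlier results of these data known, so counts within a list are descriptions beside the share over all tested genes. Named genes were the 10 largest rises and falls among called genes whose groups did not overlap and whose higher group had a mean FPKM of at least 5, up to 6 members of a list with the smallest adjusted p and up to 2 members not called with the highest mean FPKM, and 12 fixed genes; any other is said to have been chosen after its values were seen. A few genes that the rule named are not reported here.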

Additional observations from a re-analysis of the deposited data

Results flagged for a closer look

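The effect of 15 Gy changed direction with time in 32 genes between 24 h and 3 d, and in 500 genes between 6 h and 3 d. In these genes both effects against control and the contrast between the times were called in edgeR's test at an adjusted p under 0.05. The 2 effects share the control libraries, while the contrast between the times does not use them. At least 2-fold in both directions were 9 genes at 24 h and 45 genes at 6 h, and 7 cases concerned named genes. Ly6a, the revival marker, averaged 5.09 CPM in control, 3.03 CPM at 6 h, 0.819 CPM at 24 h and 32.97 CPM at 3 d, and differed between 3 d and 24 h by 5.33 ± 0.60 (edgeR adjusted p = 1.39e-06). It was thus below control at 24 h and above it at 3 d.

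The other 6 were above control at 6 h and below it at 3 d. Among retinoid enzymes, Rdh7 averaged 94.3 CPM in control, 222 CPM at 6 h, 186 CPM at 24 h and 4.54 CPM at 3 d, with a contrast of 3 d and 6 h of -5.61 ± 0.39 (edgeR adjusted p = 1.54e-09). Retsat, the retinol saturase gene, averaged 97.9 CPM in control, 222 CPM at 6 h, 147 CPM at 24 h and 31.02 CPM at 3 d (-2.84 ± 0.29, edgeR adjusted p = 1.24e-07). Adh1, an alcohol dehydrogenase of retinol, averaged 359 CPM in control, 731 CPM at 6 h, 324 CPM at 24 h and 125 CPM at 3 d (-2.55 ± 0.28, edgeR adjusted p = 3.52e-07). The tuft cell genes were Alox5ap, which averaged 2.53 CPM in control, 6.37 CPM at 6 h, 2.83 CPM at 24 h and 0.523 CPM at 3 d (-3.60 ± 0.24, edgeR adjusted p = 9.69e-10), and Sh2d6, which averaged 7.86 CPM in control, 17.3 CPM at 6 h, 8.203 CPM at 24 h and 0.951 CPM at 3 d (-4.19 ± 0.42, edgeR adjusted p = 1.06e-07). Guca2b, the uroguanylin gene, averaged 2622 CPM in control, 5293 CPM at 6 h, 1971 CPM at 24 h and 1068 CPM at 3 d (-2.31 ± 0.29, edgeR adjusted p = 1.76e-06). In each of them the level at 24 h lay between those at 6 h and 3 d.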

How the results depend on the processing

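Between 3 d and control, 3273 genes were called, and the alternatives gave 2871 to 3625 calls with other scaling, libraries or tools, 2937 without the filter, 2587 to 2908 with each library left out in turn, and 2142 with the compared groups fitted alone, where fewer libraries estimate the spread. Against 24 h there were 2813 calls, 2140 to 2597 with a library left out and 1663 with the groups fitted alone; against 6 h, 5226, 4616 to 4770 and 4384. The share of calls that were higher at 3 d was 47.1% against control, 44.1% against 24 h and 52.3% against 6 h. With limma on log2(FPKM + 1) it was 73.8%, 62.5% and 68.6%. The limma fits used the deposited FPKM values without TMM factors. These factors were 0.861 to 0.864 in control and 0.963 to 1.09 at 3 d. The part of this scaling in the shares was not tested. Of the 3273 genes called against control, 61.7% were also called with the groups fitted alone and 99.8% in DESeq2. The share was 71.0% with limma on log2(FPKM + 1) and 75.8% to 79.1% with a library left out. Many named genes were chosen by fold change or adjusted p in these data, so their calls do not stand for all called genes. Of 152 named genes tested, 127 were called, and 114 of these kept call and direction under every alternative. None reversed. Only uncalled genes changed sign: with a library left out, the log2 difference ranged from -0.0868 to 0.225 for Cdkn1a, -0.0805 to 0.333 for Gip, -0.34 to 0.75 for Isg15, -0.204 to 0.0720 for Mdm2, -0.47 to 0.48 for Mki67 and -1.77 to 0.17 for Olfm4, and Mdm2 was at 0.14 and 0.15 with limma on log2(FPKM + 1) and log2(FPKM + 0.1). With the replicate number as a block, 3211 genes were called against control, 2761 against 24 h and 5179 against 6 h, and Slc40a1 lost its call (edgeR adjusted p = 0.0576). Deviations of same-numbered libraries at 3 d and in control correlated at -0.07, -0.09 and -0.10, and those of differently numbered libraries at -0.07 to 0.14. Deviations within groups of 3 sum to 0, so these values cannot show whether same-numbered libraries share more than a number. Depth limits genes such as Lgr5, Msln and Ly6g, whose control counts were few or 0.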
